A study of Mus musculus with 8 samples.

Results

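The TNF superfamily genes examined here were the 6 ligands *Tnf*, *Lta*, *Ltb*, *Tnfsf10*, *Tnfsf13b* and *Tnfsf15* and the 4 receptors *Fas*, *Tnfrsf1a*, *Tnfrsf1b* and *Ltbr*. They were taken by gene symbol from a bead array that carries 18138 symbols, and every probe with one of these symbols was used, a rule that reads no measured value. The genes themselves were chosen with earlier results of these data known. All 10 genes were on the array, with 17 of its 25697 probes, and all 17 probes passed the filter of detection on at least 2 of 8 arrays. *Tnfsf10* passed only through the group in which it was high. Of the 17 probes, 12 were detected on every array.

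Ligands of the TNF superfamily are made as trimers on the cell surface, many of them are cut off to act at a distance, and they signal by clustering receptors of the matching superfamily. Receptors with a death domain, such as Fas and TNFR1 (encoded by *Tnfrsf1a*), can start cell death or NF-κB signalling through adaptor proteins, whereas receptors without one, such as TNFR2 (*Tnfrsf1b*) and the lymphotoxin β receptor (*Ltbr*), recruit TRAF proteins directly. In macrophages, TNF is among the first cytokines made after bacterial products are sensed, and it acts back on the same cells.

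Macrophages were derived from the bone marrow of female mice at 8 weeks of age, either wild type (WT) or labelled iNOS-/-. The labels give the strain of all groups as C57bl/6J, whereas the methods name the mutant line B6.129P2-*Nos2* tm1Lau, in which *Nos2* is targeted in all cells. The cells were cultured for 7 days in GM-CSF (10 ng/ml). Each genotype was either left unstimulated or brought to the M1 state over 6 h with 200 ng/ml LPS, a bacterial product, and 10 ng/ml IFN-γ, and each of the 4 groups was measured on 2 arrays. Whether paired arrays stem from separate mice is not stated in the labels, so p-values measure the spread between arrays, which may be technical. Values are scaled intensities with a floor of 1. A probe counts as detected on an array at a detection p-value under 0.05, and a difference as called at an adjusted p under 0.05 from limma over 13868 probes. Differences are on the log2 scale with their standard error (SE), and intensities of different probes cannot be set against each other.

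Detected probes made up 46.0% to 49.3% of each array, and scale factors ran from 0.801 to 1.30. The probe for *Nos2*, the targeted gene, was detected on no unstimulated array. After activation it showed no drop on arrays labelled iNOS-/- relative to WT (log2 difference 0.36, SE 0.32, adjusted p = 0.397 from limma), so it does not check the labels, and every direction given for a genotype rests on them. All 8 macrophage markers (among them *Csf1r*, *Cd68* and *Adgre1*) were detected on both arrays of every group. Their summed intensity was not the same in all groups. It was 30685 to 31201 in WT unstimulated cells and 24649 to 24707 in unstimulated cells labelled iNOS-/-. After activation it was 32546 to 34527 in WT and 36545 to 37716 in cells labelled iNOS-/-. In such bulk cultures, fewer cells of a type and less RNA per cell cannot be told apart.

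Between the unstimulated cultures, 5 of the 10 genes (*Tnf*, *Lta*, *Ltb*, *Tnfsf13b* and *Tnfsf15*, all ligands) were called higher with the iNOS-/- label and 1 receptor gene, *Tnfrsf1b*, was called lower. By probe, 7 of 17 were higher and 2 lower, 9 called in all, or 52.9%, where 32.1% of all 13868 probes were called (15.9% higher and 16.2% lower). The median log2 difference was 0.16 for the 17 probes and -0.02 for all probes.

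Between the M1 cultures, 5 genes (*Tnf*, *Lta*, *Tnfsf10*, *Tnfsf15* and *Fas*) were called higher with the iNOS-/- label and *Tnfsf13b* was called lower. Again 7 probes were higher and 2 lower, which at 52.9% lay near the 48.5% of all probes called (24.2% higher and 24.3% lower), so the count of calls did not set the family apart. *Tnfsf10*, which had to differ by the way it entered the test, is included here and in the counts for activation below. The median log2 difference was 0.47 against 0 for all probes. *Tnf* belongs to the M1 markers that the study itself picked out on these samples, and its direction is therefore not independent evidence.

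Activation raised most of the family in both genotypes. In WT, 13 probes of 8 genes were called higher and none lower, 76.5% of the 17, where 35.1% of all probes were called (20.2% higher and 14.9% lower). The median log2 response was 0.76 against 0.07 for all probes. On the arrays labelled iNOS-/-, 12 probes of 7 genes were called higher and 3 probes of 2 genes lower, 88.2%, where 50.0% of all probes were called (26.2% higher and 23.8% lower), with a median of 1.91 against 0.04. Leaving out any 1 WT array, which leaves 1 array in its group, reduced the count of calls in WT, both for the members and over all probes.

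The response itself differed between the genotypes for 9 probes, 52.9%, of which 5 had a higher response on the arrays labelled iNOS-/- (*Tnfsf10*, *Fas* and *Tnfrsf1b*) and 4 a lower one (*Ltb*, *Tnfsf13b* and, with a direction that turned under other settings, *Tnfsf15*). Over all probes 41.9% were called (20.8% higher and 21.1% lower).

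**Figure D1:**
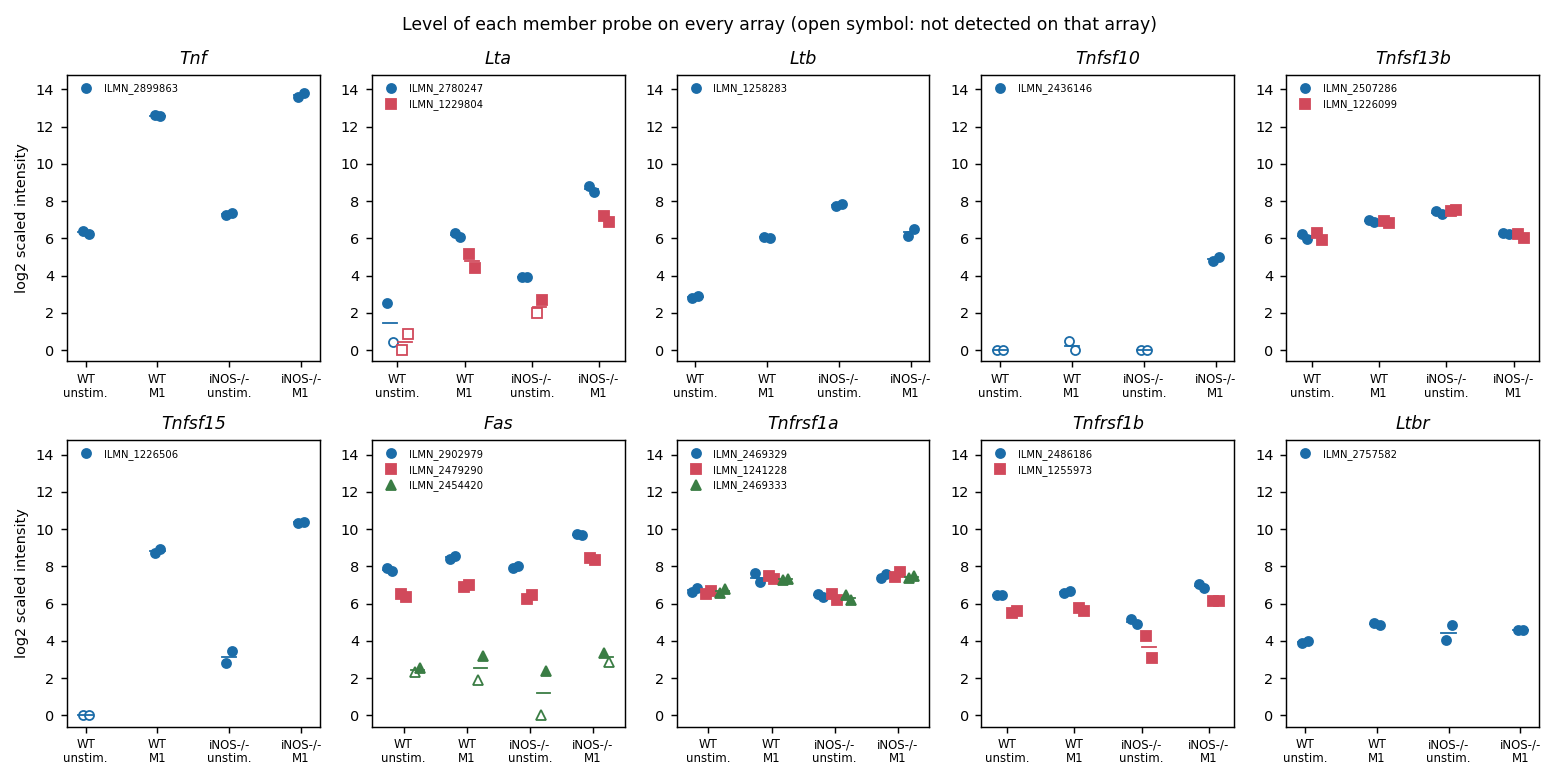
Log2 scaled intensity of the 17 probes on each of the 8 arrays, in 1 panel per gene, with 2 arrays per group, a bar at the group mean and open symbols where the probe was not detected. *Tnf*, *Lta* and *Tnfsf15* share the order iNOS-/- M1, WT M1, iNOS-/- unstimulated, WT unstimulated, whereas *Ltb* and *Tnfsf13b* are highest in unstimulated cultures labelled iNOS-/-.

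*Tnf* encodes the founding cytokine of the family, which binds both TNFR1 and TNFR2. Its intensity was 85.6 and 74.7 on the WT unstimulated arrays, 151 and 165 in unstimulated cells labelled iNOS-/-, 6295 and 6033 in WT M1, and 12272 and 14474 in M1 cells labelled iNOS-/-. The 4 groups did not overlap, and both arrays labelled iNOS-/- lay above both WT arrays before and after activation. The log2 difference between genotypes was 0.98 (SE 0.13, adjusted p = 0.00414 from limma) in unstimulated cells and 1.11 (SE 0.13, adjusted p = 0.00161) in M1 cells, or 1.98-fold and 2.16-fold. Under quantile normalization the difference in M1 cells was 0.55 and was still called. Activation raised *Tnf* 77.1-fold in WT (log2 response 6.27, SE 0.13, adjusted p = 1.74e-05) and 84.4-fold on the arrays labelled iNOS-/- (log2 response 6.40, SE 0.13, adjusted p = 1.44e-05), or by 5.80 there with neqc. The difference between these responses was 0.13, with a 95% confidence interval from -0.32 to 0.58 (adjusted p = 0.60).

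*Lta* encodes lymphotoxin α, which as a homotrimer binds the TNF receptors and together with lymphotoxin β forms the ligand of the lymphotoxin β receptor. Its 2 probes share no more than 5 bases in a row. Probe ILMN_2780247 read 5.72 and 1.35 in WT unstimulated cells (detected on 1 of the arrays), 15.0 and 15.3 in unstimulated cells labelled iNOS-/-, 77.2 and 68.0 in WT M1, and 446 and 363 in M1 cells labelled iNOS-/-. Probe ILMN_1229804 read 1 and 1.80 (both undetected), 3.97 and 6.41 (the latter detected), 35.6 and 21.1, and 145 and 118 in the same groups. Both probes thus put the groups in the order of *Tnf*, with no overlap between neighbours.

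After activation, *Lta* was higher on arrays labelled iNOS-/- by 2.48 (SE 0.65, adjusted p = 0.0276 from limma) with the first probe and by 2.26 (SE 0.42, adjusted p = 0.00890) with the second. Before activation the difference was 2.44 (SE 0.65, adjusted p = 0.0403) with the first probe, close to background, and 3.49 or 1.40 without WT unstimulated replicate 1 or 2. The second probe was detected then on 1 of the 4 arrays, and its called difference (adjusted p = 0.0230) has no size that can be given. In WT, activation raised the first probe by 4.70 (SE 0.65, adjusted p = 0.00494 from limma), a size that rests on WT unstimulated values at background and was 5.75 or 3.66 without WT unstimulated replicate 1 or 2 and 2.00 with neqc. It raised the second at least 4.86-fold (adjusted p = 0.00161), and on the arrays labelled iNOS-/- it raised the first probe 26.6-fold (adjusted p = 0.00262). The differences in response, 0.03 (95% confidence interval -2.30 to 2.36) and 0.35 (-1.17 to 1.86), were not called. Their direction was not settled: both became called with neqc (1.62 and 1.59) and with a floor of 16 (2.48 and 2.26), and ILMN_2780247 was called at -1.01 without WT unstimulated replicate 1 and at 1.07 without WT unstimulated replicate 2. The M1 call of ILMN_2780247 between genotypes was lost without any 1 M1 array (2.33 to 2.62), without either unstimulated array labelled iNOS-/- (2.48) and with no detection filter, and its unstimulated call under 9 of 18 alternatives, among them a floor of 16 (0), whereas ILMN_1229804 was called between the M1 groups under all 18.

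*Ltb* encodes lymphotoxin β, the membrane-bound partner of lymphotoxin α. Its order of groups differed from that of its neighbours *Tnf* and *Lta*, with which it lies side by side on chromosome 17. Intensity was 6.95 and 7.38 in WT unstimulated cells, 68.5 and 65.1 in WT M1, 216 and 230 in unstimulated cells labelled iNOS-/-, and 70.9 and 90.9 in M1 cells labelled iNOS-/-. The unstimulated arrays labelled iNOS-/- were the highest of all, and the M1 groups lay close together. Before activation *Ltb* was 31.1-fold higher on the arrays labelled iNOS-/- (log2 difference 4.96, SE 0.14, adjusted p = 4.91e-05 from limma). The WT arrays were just above the lowest detected intensities of 5.72 and 5.58, and with neqc the difference was 3.36. Between the M1 groups the difference was 0.27 (95% confidence interval -0.09 to 0.62, adjusted p = 0.173), and it was called only with neqc normalization (0.32) and without iNOS-/- M1 replicate 1 (0.45).

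Activation raised *Ltb* 9.32-fold in WT (log2 response 3.22, SE 0.14, adjusted p = 0.000121 from limma), or by 1.70 with neqc. On the arrays labelled iNOS-/- it fell by 1.47 on the log2 scale (SE 0.14, adjusted p = 0.000693). The test of the difference between these responses gave -4.69 (SE 0.20, adjusted p = 0.000188), and the value stayed between -4.87 and -3.04 under 17 alternatives, called in each.

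The promoters of *Tnf* and *Ltb* are shown because the genes adjoin each other and had different orders of groups. Both are the 250 bases before the annotated start site in RefSeq (build GRCm38.p6), for *Tnf* at chr17:35202008-35202257, minus strand, and for *Ltb* at chr17:35194257-35194506, plus strand. Capitals mark matches on either strand to 4 motifs: TTCNNNGAA (GAS, the gamma-activated site), TATAAA (the box that the TBP protein binds), the ISRE core (of the interferon response; it reads GAAA on both sides of any 2 bases), and the consensus of the κB site, to which NF-κB binds.
Tnf: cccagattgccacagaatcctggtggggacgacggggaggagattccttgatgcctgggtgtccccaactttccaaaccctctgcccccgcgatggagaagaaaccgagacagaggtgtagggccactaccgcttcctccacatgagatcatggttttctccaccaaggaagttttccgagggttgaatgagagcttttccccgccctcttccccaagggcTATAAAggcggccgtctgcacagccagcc
Ltb: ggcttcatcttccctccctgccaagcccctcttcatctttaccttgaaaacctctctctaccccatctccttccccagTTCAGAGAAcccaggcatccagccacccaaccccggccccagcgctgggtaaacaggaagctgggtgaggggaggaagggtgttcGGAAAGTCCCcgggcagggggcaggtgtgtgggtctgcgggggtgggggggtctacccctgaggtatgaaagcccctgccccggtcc
In the *Tnf* window the 1 match was TATAAA, starting 29 bases before the start site. The *Ltb* window held a GAS match starting 172 bases before the start and, on the other strand, a κB consensus match starting 87 bases before it, and no 2 matches overlapped. Over all 32851 RefSeq promoters of 27025 genes, the same 250 bases held a κB consensus in 7.25%, GAS letters in 7.02%, an ISRE core in 2.98% and TATAAA in 12.4%. The table's window for *Lta* lies mostly inside the annotated gene and is not shown. These matches describe letters, not binding.

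*Tnfsf15* encodes TL1A, a ligand of death receptor 3 that costimulates T cells. It was at the floor of 1 and undetected on both WT unstimulated arrays. On the arrays labelled iNOS-/- unstimulated it read 7.10 and 10.9, in WT M1 420 and 496, and in M1 cells labelled iNOS-/- 1265 and 1361. The order of groups was that of *Tnf*, without overlap. After activation it was 2.87-fold higher on the arrays labelled iNOS-/- (log2 difference 1.52, SE 0.22, adjusted p = 0.00349 from limma). Before activation it was at least 1.56-fold higher (adjusted p = 0.000609), a call that ended with a floor of 16.

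In WT, activation raised *Tnfsf15* at least 80.8-fold (adjusted p = 3.11e-05 from limma), and on the arrays labelled iNOS-/- it raised it 149-fold (log2 response 7.22, SE 0.22, adjusted p = 2.93e-05), or by 5.40 with neqc. The fitted difference in response was -1.61 (SE 0.31, adjusted p = 0.0113), but it rests on WT unstimulated values at the floor. It became 0.71 with neqc, 0.20 with an intercept in the scaling line and 1.52 with a floor of 16, so no direction can be given.

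*Tnfsf10* encodes TRAIL, which triggers death receptors on susceptible cells. Its probe was undetected on all 6 arrays outside 1 group, with values between 1 and 1.39. On the arrays labelled iNOS-/- M1 it read 27.5 and 32.6 and was detected on both. There it was at least 4.40-fold higher than in WT M1 and at least 6.06-fold higher than in unstimulated cells labelled iNOS-/-. Since the probe entered the test only through this group, it had to differ from the others, and its values are a description with no test. The fitted difference in response, 4.66, depends on the floor and was 0.90 with a floor of 16.

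The promoters of *Tnfsf15*, at chr4:63745060-63745309, minus strand, and *Tnfsf10*, at chr3:27316827-27317076, plus strand, are shown from the same table and build because these ligands went from undetected to detected: *Tnfsf15* with activation in WT, and *Tnfsf10* only in M1 cells labelled iNOS-/-.
Tnfsf15: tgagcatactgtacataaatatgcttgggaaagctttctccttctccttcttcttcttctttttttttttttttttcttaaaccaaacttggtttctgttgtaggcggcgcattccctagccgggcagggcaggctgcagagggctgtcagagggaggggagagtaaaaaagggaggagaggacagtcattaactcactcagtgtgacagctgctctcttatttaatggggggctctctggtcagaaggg
Tnfsf10: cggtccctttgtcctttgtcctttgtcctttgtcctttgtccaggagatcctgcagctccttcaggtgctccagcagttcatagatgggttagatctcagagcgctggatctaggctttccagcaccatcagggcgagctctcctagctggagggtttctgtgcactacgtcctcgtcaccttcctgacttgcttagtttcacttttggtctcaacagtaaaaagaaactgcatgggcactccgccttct
Neither window held any of the 4 motifs, which says only that these letters were not in these windows.

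*Tnfsf13b* encodes BAFF, a survival factor of B cells that myeloid cells make. Its 2 probes share 48 bases and are not independent measurements. With ILMN_2507286 the intensity was 75.2 and 63.2 in WT unstimulated cells, 124 and 120 in WT M1, 176 and 156 in unstimulated cells labelled iNOS-/-, and 77.6 and 75.0 in M1 cells labelled iNOS-/-. As for *Ltb*, the unstimulated arrays labelled iNOS-/- were highest. Before activation the arrays labelled iNOS-/- were higher by 1.27 (SE 0.12, adjusted p = 0.00154 from limma) and after activation they were lower, by a log2 difference of -0.68 (SE 0.12, adjusted p = 0.00722). The response was 0.82 in WT (SE 0.12, adjusted p = 0.00579) and -1.12 on the arrays labelled iNOS-/- (SE 0.12, adjusted p = 0.00105), and the difference between them was -1.94 (SE 0.17, adjusted p = 0.00107). ILMN_1226099 gave the same 5 calls, with -2.15 for the difference in response, but its call between the M1 groups was lost without WT M1 replicate 1 (-0.69) or iNOS-/- M1 replicate 2 (-0.63), and its WT response without WT unstimulated replicate 2 (0.59) or either WT M1 array (0.70 or 0.82).

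**Figure D2:**
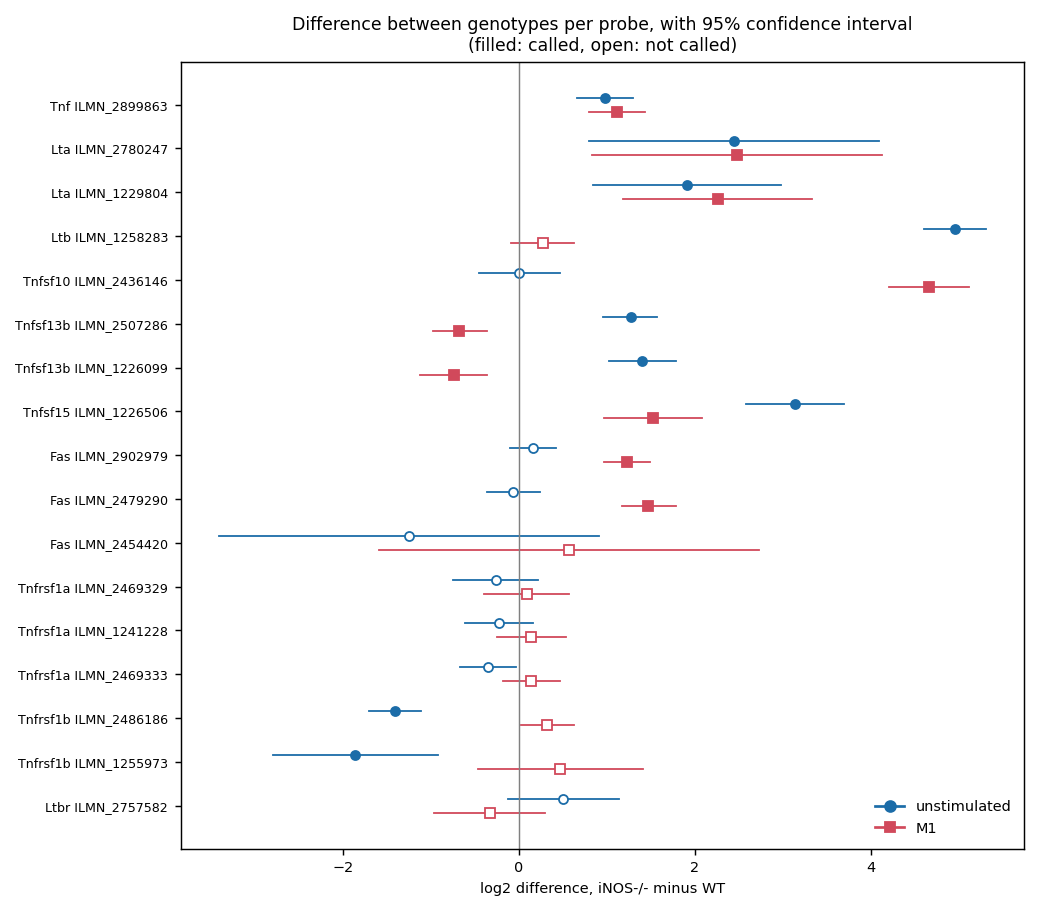
Log2 difference between arrays labelled iNOS-/- and WT arrays for each probe, unstimulated (circles) and M1 (squares), with 95% confidence intervals from limma, 2 arrays per group, and filled symbols where called. *Ltb* lies at 4.96 before and 0.27 after activation, and *Tnfsf10* at 0 before and 4.66 after, with values of undetected groups set by the floor of 1.

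*Fas* encodes the death receptor CD95. Probe ILMN_2902979 read 238 and 215 in WT unstimulated cells, 242 and 264 in unstimulated cells labelled iNOS-/-, 344 and 376 in WT M1, and 850 and 833 in M1 cells labelled iNOS-/-. Probe ILMN_2479290 read 91.3 and 82.6, 76.3 and 89.9, 119 and 127, and 355 and 328 in the same groups. With either probe the M1 arrays labelled iNOS-/- were the highest and the unstimulated groups lay together. The difference between the M1 groups was 1.23 (SE 0.10, adjusted p = 0.000644 from limma) and 1.47 (SE 0.12, adjusted p = 0.000604), whereas that between the unstimulated groups was 0.16 (95% confidence interval -0.10 to 0.42) and -0.07 (-0.37 to 0.24) and was not called.

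Activation raised *Fas* in WT by 0.67 (SE 0.10, adjusted p = 0.00690 from limma) with the first probe and by 0.50 (SE 0.12, adjusted p = 0.0275) with the second, and on the arrays labelled iNOS-/- by 1.74 (SE 0.10, adjusted p = 0.000158) and 2.04 (SE 0.12, adjusted p = 0.000156). The response was larger there by 1.07 (SE 0.15, adjusted p = 0.00385) and 1.54 (SE 0.17, adjusted p = 0.00207), called under all 17 alternatives. The WT response with the second probe was lost under quantile normalization (0.40) and without any 1 of the 4 WT arrays (0.43 to 0.57). The remaining probe, ILMN_2454420, was detected on both arrays of no group, with values from 1 to 10.1, and none of its differences was called.

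*Tnfrsf1a* encodes TNFR1, the receptor through which soluble TNF mainly acts. Its 3 probes share 48 or 49 bases pairwise and measure 1 stretch of transcript. ILMN_1241228 read 92.7 and 101 in WT unstimulated cells, 91.1 and 74.7 in unstimulated cells labelled iNOS-/-, 182 and 162 in WT M1, and 173 and 207 in M1 cells labelled iNOS-/-. The M1 arrays were above the unstimulated arrays in both genotypes, and the M1 groups overlapped. Activation raised it by 0.82 in WT (SE 0.15, adjusted p = 0.0126 from limma) and by 1.20 on the arrays labelled iNOS-/- (SE 0.15, adjusted p = 0.00205). The other two probes gave 0.68 and 0.63 in WT and 1.03 and 1.12 on the arrays labelled iNOS-/-, all called. None of the 3 was called between genotypes, with differences of 0.09 to 0.14 between the M1 groups (95% confidence intervals reaching from -0.40 to 0.57) and -0.35 to -0.23 between the unstimulated groups (reaching from -0.75 to 0.22). The lowest of these, -0.35 with ILMN_2469333, was called with neqc (-0.34) and with an intensity trend, as was its difference in response of 0.49 (95% confidence interval 0.04 to 0.94, adjusted p = 0.0806 from limma). The WT call of ILMN_2469329 was lost under 13 of 18 alternatives, and ILMN_1241228 and ILMN_2469333 lost theirs without WT M1 replicate 1 (0.74 and 0.64) or WT unstimulated replicate 1 (0.76 and 0.53), the latter probe also without WT M1 replicate 2 (0.61).

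*Tnfrsf1b* encodes TNFR2, which responds best to membrane-bound TNF. Probe ILMN_2486186 read 86.7 and 87.2 in WT unstimulated cells, 94.6 and 102 in WT M1, 35.6 and 30.1 in unstimulated cells labelled iNOS-/-, and 130 and 116 in M1 cells labelled iNOS-/-. Probe ILMN_1255973, with no more than 5 shared bases in a row, read 45.1 and 48.2, 53.8 and 48.5, 19.3 and 8.57, and 70.6 and 71.2 in the same groups. Both probes were lowest in unstimulated cells labelled iNOS-/- and highest in M1 cells labelled iNOS-/-. Before activation the difference was -1.41 (SE 0.12, adjusted p = 0.00110 from limma) and -1.86 (SE 0.37, adjusted p = 0.0168). After activation it was 0.32 (95% confidence interval 0.02 to 0.63, adjusted p = 0.0757) and 0.47 (-0.47 to 1.41, adjusted p = 0.343), neither called, although both were with neqc (0.34 and 0.48).

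Activation raised *Tnfrsf1b* by 1.91 (SE 0.12, adjusted p = 0.000191 from limma) and 2.46 (SE 0.37, adjusted p = 0.00367) on the arrays labelled iNOS-/-. In WT the responses of 0.18 (95% confidence interval -0.13 to 0.48) and 0.13 (-0.81 to 1.07) were not called. The difference in response was 1.73 (SE 0.17, adjusted p = 0.00147) and 2.33 (SE 0.53, adjusted p = 0.0191). The second of these was lost without any 1 WT array or either M1 array labelled iNOS-/- (2.25 to 2.40), and the first was called under all 17 alternatives. Without WT unstimulated replicate 1 or replicate 2, the unstimulated difference with ILMN_1255973 (-1.90 or -1.81) was no longer called either. Without iNOS-/- unstimulated replicate 1 or 2, the response on the arrays labelled iNOS-/- with this probe was 3.05 or 1.87 and the difference in response 2.92 or 1.74, and without the latter array the unstimulated difference was -1.27, all still called.

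The *Tnfrsf1b* promoter, at chr4:145246871-145247120, minus strand of the same build, is shown because this gene was the only one of the 4 receptors called between the unstimulated genotypes.
Tnfrsf1b: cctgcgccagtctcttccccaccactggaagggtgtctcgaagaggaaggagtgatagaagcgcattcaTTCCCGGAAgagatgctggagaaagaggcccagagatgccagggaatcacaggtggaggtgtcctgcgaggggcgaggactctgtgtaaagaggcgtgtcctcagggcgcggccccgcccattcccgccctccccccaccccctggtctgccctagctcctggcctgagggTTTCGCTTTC
It held a GAS match starting 181 bases before the start and, on the other strand, an ISRE core starting 10 bases before it, which do not overlap. Among the members whose windows are not shown, GAS letters were found for *Lta* (in the window that lies mostly inside the gene), *Fas* and *Tnfrsf1a*, the last 2 starting 93 and 244 bases before the start, and an ISRE core in 1 of the 2 windows of *Tnfsf13b*, 16 bases before it, a window that lies inside the annotated gene.

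*Ltbr* encodes the lymphotoxin β receptor, known for its part in the build-up of lymphoid tissue. Its dim probe read 15.0 and 15.7 in WT unstimulated cells, 31.2 and 29.2 in WT M1, 16.6 and 28.4 in unstimulated cells labelled iNOS-/-, and 24.0 and 23.9 in M1 cells labelled iNOS-/-. The unstimulated arrays labelled iNOS-/- differed most from each other. Activation raised *Ltbr* 1.97-fold in WT (log2 response 0.97, SE 0.25, adjusted p = 0.0340 from limma), a call lost under 11 of 18 alternatives, among them leaving out any WT array (0.93 to 1.02). Its other differences were not called: -0.33 (95% confidence interval -0.97 to 0.30) between the M1 groups, 0.50 (-0.13 to 1.14) between the unstimulated groups and 0.14 (-0.50 to 0.78) for activation on the arrays labelled iNOS-/-. Without iNOS-/- unstimulated replicate 1 the unstimulated difference was 0.89 and the difference in response -1.22, both called, and without replicate 2 the response on the arrays labelled iNOS-/- was 0.53 and called. Without either of them the M1 difference, still -0.33, was called.

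**Figure D3:**
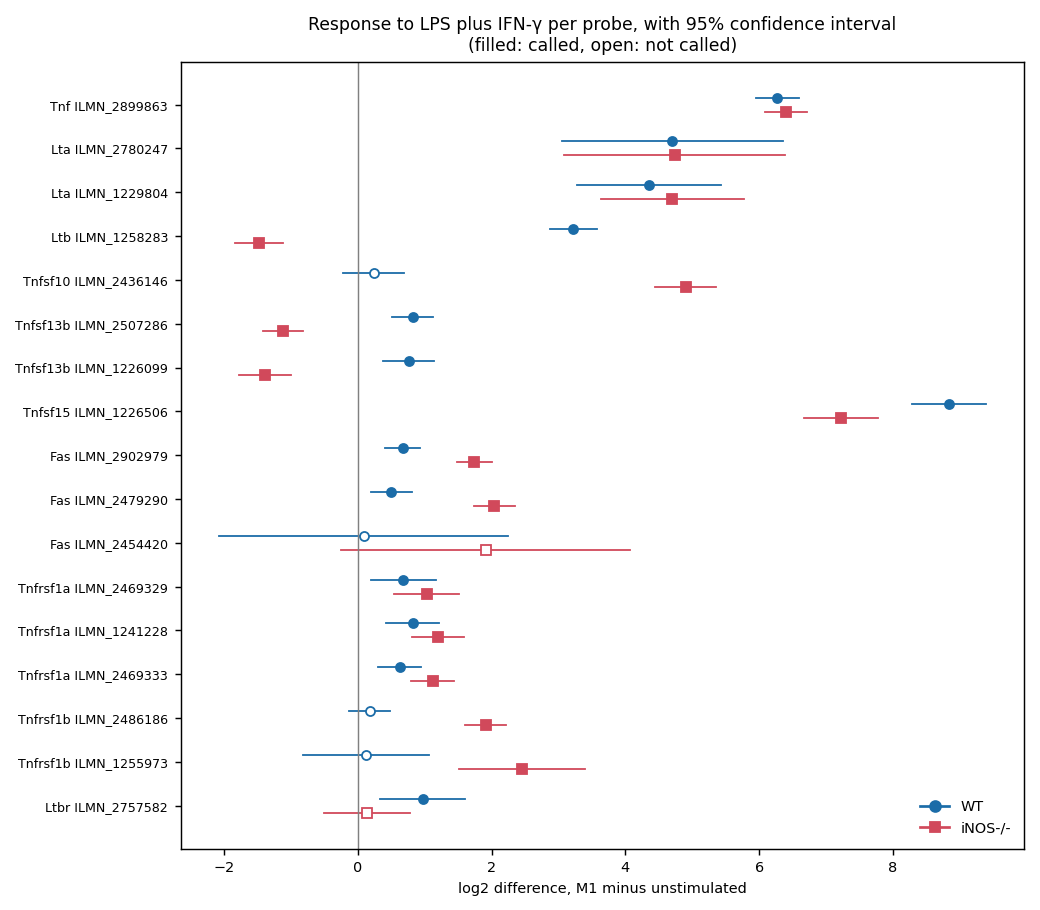
Log2 response to LPS plus IFN-γ (M1 minus unstimulated) for each probe in WT (circles) and on arrays labelled iNOS-/- (squares), with 95% confidence intervals from limma, 2 arrays per group, and filled symbols where called. The responses of *Tnf* lie together at 6.27 and 6.40, whereas *Ltb* (3.22 and -1.47) and *Tnfsf13b* lie on opposite sides of 0 in the genotypes.

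Markers of other cell types moved with some of these values. Of 9 dendritic cell markers, 5 were detected on both arrays of the WT unstimulated group, 8 in unstimulated cells labelled iNOS-/-, 8 in WT M1 and 7 in M1 cells labelled iNOS-/-. Their summed intensity was 776 on each WT unstimulated array, 10653 and 11628 in unstimulated cells labelled iNOS-/-, 12476 and 13036 in WT M1, and 24415 and 24683 in M1 cells labelled iNOS-/-, while *Flt3* was undetected in every group. *Cd209a* was detected on both arrays of WT M1 and of unstimulated cells labelled iNOS-/-. It was detected on neither array of M1 cells labelled iNOS-/-, where the sum was highest. The summed intensity was thus higher in unstimulated cells labelled iNOS-/-, as *Tnf*, *Ltb*, *Tnfsf13b*, *Tnfsf15* and *Lta* were, and its part in those differences was not tested. For 8 granulocyte markers the sum was 1125 to 1157 in WT unstimulated cells, 1657 to 1727 in unstimulated cells labelled iNOS-/-, 1383 to 1498 in WT M1 and 3934 to 4036 in M1 cells labelled iNOS-/-. Not all of them followed this sum: *Mpo* was detected in no group, and *Elane* on neither array of M1 cells labelled iNOS-/-. *Cd3d*, *Cd3e* and *Cd3g* of T cells, *Ms4a1* of B cells, and *Ncr1* and *Klrb1c* of NK cells, the lymphocytes best known for lymphotoxin, were detected on both arrays of no group. Of the T cell list, 1 of 5 markers (*Lck*) was detected on both arrays of every group, with sums of 10.4 to 18.7 in WT unstimulated, 14.1 to 15.8 in iNOS-/- unstimulated, 36.7 to 51.5 in WT M1 and 133 to 153 in iNOS-/- M1 cultures. Of the NK cell list, 1 of 4 (*Klrd1*) was detected in all groups but WT unstimulated, with sums of 2.79 to 6.07, 68.2 to 78.8, 21.6 to 29.5 and 39.1 to 46.3 in the same order. Of 5 mast cell markers, *Cpa3* was detected in all groups but WT unstimulated, and *Mcpt8*, *Mcpt5* and *Ms4a2* in none. *Fcer1a* went the other way and was detected on both arrays of the WT unstimulated group alone. The mast cell sums were 8.36 to 13.6, 92.3 to 105, 35.8 to 39.7 and 130 to 131 in the same order. The part of these values in the differences of the ligands was not tested.

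The wider pathway was read from 6 lists of 95 genes, of which 87 were on the array and 69 were tested. The lists were drawn up from general knowledge, but with earlier results of these data known. Between the M1 groups 33 genes were higher and 12 lower with the iNOS-/- label, 65.2% against 48.5% of all probes, with a median log2 difference of 0.70 against 0. Between the unstimulated groups 18 were higher and 11 lower, 42% against 32.1%, with a median of 0.04 against -0.02. Activation raised 32 and lowered 10 in WT (60.9% against 35.1%, median 0.50 against 0.07), and raised 40 and lowered 10 on the arrays labelled iNOS-/- (72.5% against 50.0%, median 0.77 against 0.04). The response differed between genotypes for 41, with 25 higher and 16 lower (59.4% against 41.9%). Genes tested only because they were bright in 1 group had to differ, so these shares describe the lists and carry no test.

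Of 12 other ligands, 6 were tested. Between the unstimulated groups 50% of these were called and between the M1 groups 66.7%, against 32.1% and 48.5% of all probes. Before activation 3 were higher on the arrays labelled iNOS-/- and none lower: *Tnfsf4*, which encodes OX40 ligand, by at least 4.06-fold (adjusted p = 2.74e-05 from limma), *Cd70*, the ligand of CD27, by at least 2.90-fold (adjusted p = 0.00628), and *Tnfsf8*, which encodes CD30 ligand, by 1.92 (SE 0.18, adjusted p = 0.00145). The same 3 were higher between the M1 groups, by 1.36 (SE 0.10, adjusted p = 0.000464), 2.35 (SE 0.49, adjusted p = 0.0125) and 1.21 (SE 0.18, adjusted p = 0.00384). *Tnfsf14*, which encodes LIGHT, another ligand of the lymphotoxin β receptor, was lower there by at least 1.98-fold (adjusted p = 0.0395). *Tnfsf4* read 1 on both WT unstimulated arrays and 24.7 and 21.3 on those labelled iNOS-/-, then 78.9 and 79.4 in WT M1 and 208 and 198 in M1 cells labelled iNOS-/-.

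Of 24 other receptors, 14 were tested, and they split in direction. *Cd40*, a costimulatory receptor of antigen-presenting cells, read 17.2 and 16.6 in WT unstimulated cells, 478 and 473 in unstimulated cells labelled iNOS-/-, 5262 and 5435 in WT M1, and 18087 and 18661 in M1 cells labelled iNOS-/-. It was higher on the arrays labelled iNOS-/- by 4.81 (SE 0.08, adjusted p = 2.05e-05 from limma) before activation and by 1.78 (SE 0.08, adjusted p = 0.000160) after it. *Tnfrsf18*, which encodes GITR, was highest in unstimulated cells labelled iNOS-/-, as *Ltb* was, but had the order of groups of *Tnfsf13b*. It read 97.1 and 94.8 in unstimulated cells labelled iNOS-/- and 21.9 and 17.5 in M1 cells labelled iNOS-/-, while WT went from undetected to 55.8 and 73.6. It was at least 17-fold higher before activation (adjusted p = 0.000426) and lower after it, at -1.71 (SE 0.37, adjusted p = 0.0148). *Tnfrsf21*, which encodes death receptor 6, was lower on the arrays labelled iNOS-/- before (-0.86, SE 0.12, adjusted p = 0.00468) and after activation (-2.60, SE 0.12, adjusted p = 0.000166), as was the decoy receptor gene *Tnfrsf22* (-1.26 and -2.07, SE 0.10 each). In all, 6 receptors were higher and 4 lower before activation, 71.4% against 32.1% of all probes. After it 3 were higher and 5 lower, 57.1% against 48.5%.

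Among 21 adaptor and kinase genes tested, the M1 groups differed for 14, with 11 higher and 3 lower in cells labelled iNOS-/-. This was 66.7%, where 48.5% of all probes were called. Before activation 5 were higher and 2 lower, 33.3% against 32.1% of all probes, and thus near the background. *Traf1*, an adaptor of TNFR2 that NF-κB induces, was higher by 2.63 (SE 0.14, adjusted p = 0.000271 from limma) before and 2.57 (SE 0.14, adjusted p = 0.000255) after activation. *Map3k14*, which encodes the NF-κB-inducing kinase downstream of the lymphotoxin β receptor, was higher by 2.60 (SE 0.10, adjusted p = 0.000126) and 1.47 (SE 0.10, adjusted p = 0.000413). *Ripk1*, the kinase recruited to TNFR1, was lower by a log2 difference of -0.60 (SE 0.10, adjusted p = 0.00912) and -0.39 (SE 0.10, adjusted p = 0.0234). *Mlkl*, the effector of necroptosis, was higher after activation by 1.30 (SE 0.12, adjusted p = 0.000838).

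The list of brakes and ubiquitin editors holds genes that restrain TNF signalling (*Tnfaip3*, *Cyld*). It further holds genes of ubiquitin ligases or subunits of their complexes that also promote NF-κB signalling from TNFR1 (*Rnf31*, *Rbck1*, *Sharpin*, *Birc2* and *Birc3*). Of its 13 tested genes, between the M1 groups 9 were higher and 1 lower with the iNOS-/- label, 76.9% against 48.5% of all probes, whereas 1 was higher and 2 lower between the unstimulated groups, 23.1% against 32.1%. Among the 9 were *Rnf31* (0.94, SE 0.13, adjusted p = 0.00307 from limma), *Sharpin* (0.94, SE 0.21, adjusted p = 0.0149) and *Birc2* (1.57, SE 0.14, adjusted p = 0.000691). The largest difference was that of *Xiap* (2.49, SE 0.34, adjusted p = 0.00305 from limma), whose dim probe was detected on 1 of the 2 WT M1 arrays. *Tnfaip3*, which encodes the ubiquitin editor A20, read 115 and 126 in WT unstimulated cells, 119 and 122 in unstimulated cells labelled iNOS-/-, 528 and 574 in WT M1, and 2009 and 1908 in M1 cells labelled iNOS-/-. Its difference between the M1 groups was 1.83 (SE 0.10, adjusted p = 0.000227 from limma), with a difference in response of 1.83 (SE 0.13, adjusted p = 0.000691). *Birc3*, which encodes the ubiquitin ligase cIAP2, was higher in M1 cells by 1.67 (SE 0.35, adjusted p = 0.0134), whereas *Tnip2*, an A20-binding partner, was lower at -0.92 (SE 0.12, adjusted p = 0.00255).

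Of 10 tested genes that process *Tnf* mRNA or protein, 4 were higher and 1 lower with the iNOS-/- label after activation, 50% against 48.5% of all probes, and thus near the background. *Adam17*, which encodes the protease that releases soluble TNF, read 655 and 651 in WT unstimulated cells, 498 and 522 in unstimulated cells labelled iNOS-/-, 494 and 535 in WT M1, and 817 and 915 in M1 cells labelled iNOS-/-, and its response differed by 1.11 (SE 0.14, adjusted p = 0.00297 from limma). *Timp3*, whose product inhibits this protease, was higher between the M1 groups by 1.55 (SE 0.15, adjusted p = 0.000873). The last list had 5 tested genes, named for induction by TNF or, as *Tnfaip8l2* and *Tnfaip8l3*, for likeness to *Tnfaip8*. Of those named for induction, *Tnfaip8* (1.46, SE 0.10, adjusted p = 0.000367 from limma), *Tnfaip1* (0.94, SE 0.10, adjusted p = 0.00117) and *Tnfaip2* (0.72, SE 0.08, adjusted p = 0.00163) were higher between the M1 groups. *Tnfaip8l2* was lower there (-1.70, SE 0.14, adjusted p = 0.000626).

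**Figure D4:**
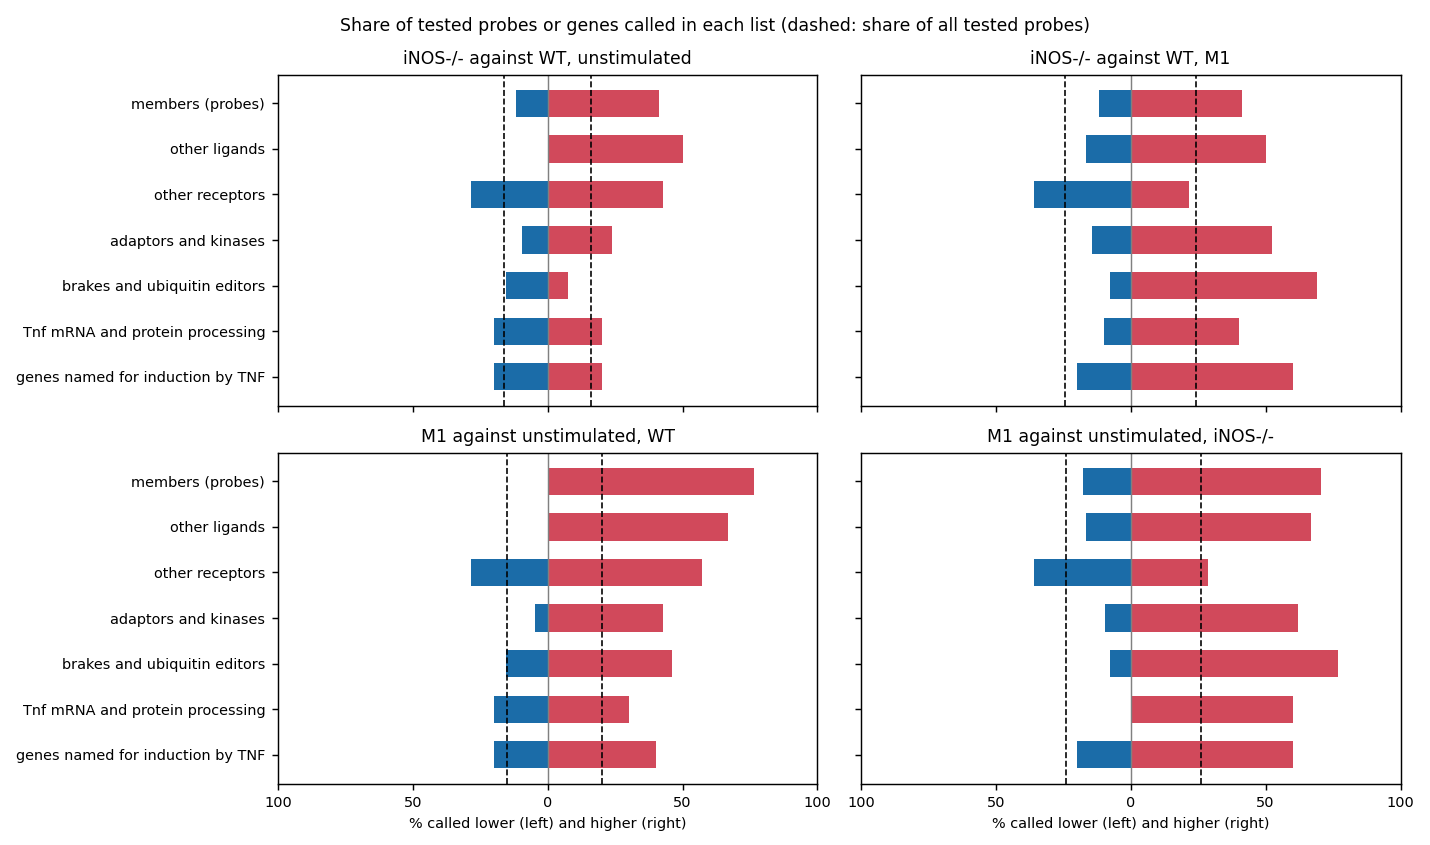
Share of tested member probes, and of tested genes in each of 6 pathway lists, called lower (left, blue) and higher (right, red) in 4 comparisons, with dashed lines at the share of all 13868 probes. Brakes and ubiquitin editors reach 9 of 13 called higher between the M1 groups and 1 of 13 between the unstimulated groups.

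**Figure D5:**
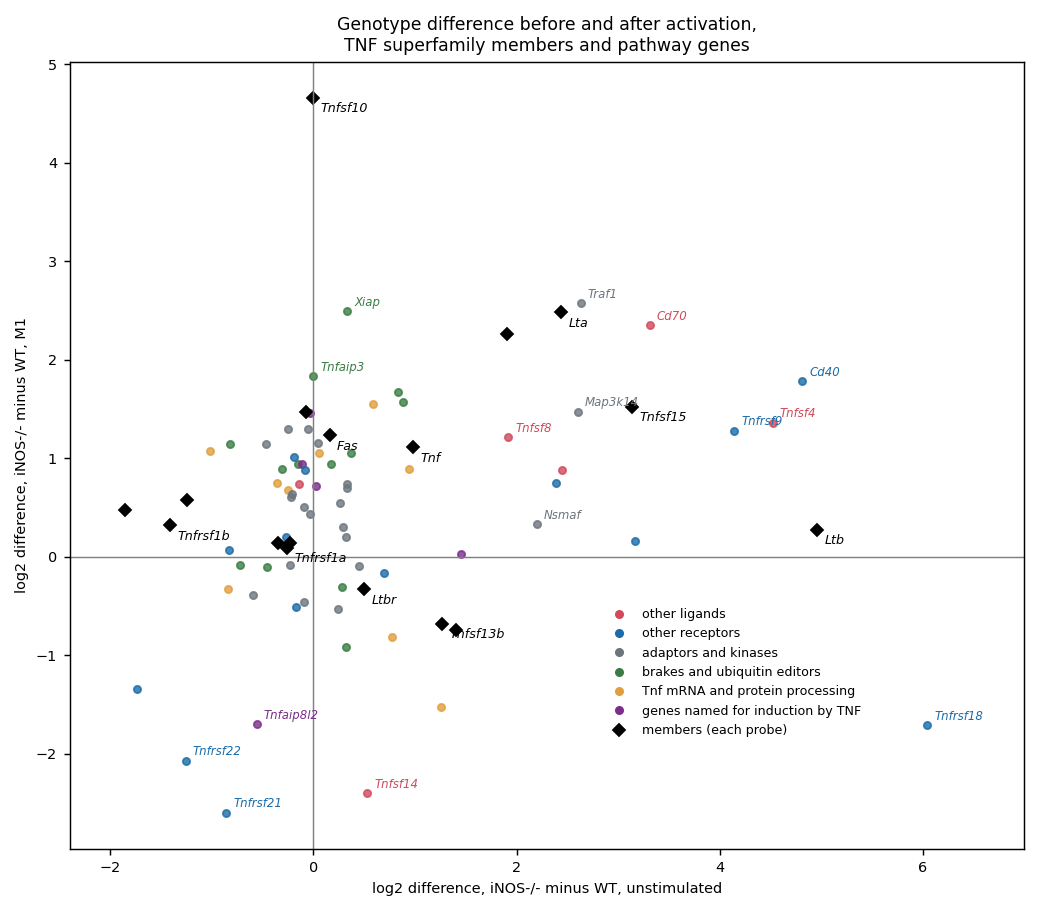
Log2 difference between arrays labelled iNOS-/- and WT arrays before activation (horizontal) and after it (vertical), for the 17 member probes (black diamonds) and the 69 tested pathway genes (coloured by list), without error bars. *Ltb* and *Tnfrsf18* lie far right at 4.96 and 6.04 with 0.27 and -1.71 after activation, whereas *Tnfsf10* lies at 4.66 after activation only, and positions of genes undetected in a group depend on the floor of 1.

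By Pearson's r of log2 values over the 8 arrays, as a description of 8 points in 4 groups, the probes most like *Tnf* among 3682 detected on all arrays with an SD of at least 0.5 were those of the chemokines *Cxcl10* and *Cxcl2* (r = 0.999 each), *Batf2*, *Sdc4* and *Pabpc1* (r = 0.997 each). Closest to *Ltb* were *Rpl3l* (r = 0.998) and *Uck2* (r = 0.992). Closest to *Fas* ILMN_2902979 were *Ap2b1* (r = 0.999) and *Triobp* (r = 0.997), and to *Tnfrsf1b* ILMN_2486186 *Sirpa* (r = 0.968) and *Tmem106a* (r = 0.966). *Cited2* was among the nearest 2 for each of the 3 *Tnfrsf1a* probes (r = 0.962 to 0.99).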

How the data were processed

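RNA of the 4 groups of cultures was measured on 8 Illumina bead arrays, 2 per group. The labels name MouseRef-8 and the methods MouseWG-8. The authors deposited a GenomeStudio report with the bead-averaged intensity and a detection p-value of each probe (the share of negative controls that are brighter), not normalized between arrays. Undetected probes lay around 0, as after background subtraction, although the header names none, so none was subtracted. The submitters' processing notes name limma 3.14.4. The methods name background subtraction, rank-invariant normalization, 1 in place of negative values, log2 and limma.

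For scaling, a robust fit in MASS 7.3.60.0.1, without intercept, related an array to the average of all 8 over rank-invariant probes (rank change under 0.05, ranks between 0.5 and 0.9 of all). Values under 1 were set to 1 and log2 was taken. The filter asked for detection (p under 0.05) on 2 or more arrays. The 4 groups entered 1 model in limma 3.58.1 under R 4.3.3 (lmFit, then eBayes), with Benjamini-Hochberg adjustment over 13868 probes. For a probe undetected on both arrays of a group, a bound is given: the bright mean over the dim mean, with each dim value raised to the lowest detected intensity of its array. A pathway gene was given by its probe with the highest mean log2 level over all 8 arrays, whether or not that probe was tested. The members and gene lists were chosen with earlier results of these data known. Named are all member probes, the probes most like a member, and pathway genes from up to 3 called each way per list and comparison. Not every such gene is printed. Outside this rule, *Rnf31*, *Sharpin* and *Birc2* are given between the M1 groups. Groups follow the labels, and 0 value columns had no sample. The number of arrays limits the precision. The fit was tested on simulated data. Alternatives were neqc, quantile normalization, a scaling intercept, a floor of 16, other filters, an intensity trend, fits on the compared arrays, a replicate block, a fold minimum of 2, averaged probes and each array left out. Promoter sequences came from RefSeq (GRCm38.p6), which held all 10 members. Probe positions were not used.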

Additional observations from a re-analysis of the deposited data

Results flagged for a closer look

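For 9 member probes the response to LPS plus IFN-γ differed between WT and the arrays labelled iNOS-/- by the interaction term of the limma fit (2 arrays per group), where 41.9% of all probes did. Responses were lower on the arrays labelled iNOS-/- for *Ltb* (-4.69), for *Tnfsf13b* (-1.94 with ILMN_2507286 and -2.15 with ILMN_1226099) and, with a direction that turned under neqc, a scaling intercept or a floor of 16, for *Tnfsf15* (-1.61). *Ltb* and *Tnfsf13b* rose in WT and fell on the arrays labelled iNOS-/-. Responses were higher for *Tnfsf10* (4.66), *Fas* (1.07 with ILMN_2902979 and 1.54 with ILMN_2479290) and *Tnfrsf1b* (1.73 with ILMN_2486186 and 2.33 with ILMN_1255973). Sizes for *Tnfsf10* and *Tnfsf15* rest on undetected groups at the floor, and *Tnfsf10*, detected in 1 group, had to differ.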

How the results depend on the processing

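Of 1370 values of member results under 18 alternatives, 1254 kept direction and call, 79 lost the call, 22 gained one and 15 turned direction. The cause of the changes was not tested. The turned values were, under quantile normalization, -0.03 for the WT response of *Tnfrsf1b* ILMN_1255973 and -0.40 for the difference in response of *Tnf*, and with neqc -0.02 and -0.28 for the same pair. The difference in response of *Tnfsf15* turned to 0.71 with neqc, 0.20 with a scaling intercept and 1.52 with a floor of 16. With 1 array left out, the M1 difference of *Tnfrsf1a* ILMN_2469329 ran from -0.15 to 0.32, the unstimulated difference of *Fas* ILMN_2479290 from -0.19 to 0.05, the response of *Ltbr* on the arrays labelled iNOS-/- from -0.25 to 0.53, and the difference in response of *Lta* from -1.01 to 1.07 (ILMN_2780247, called at both ends) and from -0.08 to 0.77 (ILMN_1229804). Member probes called for the WT response ran from 7 to 12 in place of 13. A 2-fold minimum left 5 member probes for the WT response, and 26, 14, 24, 30 and 26 pathway genes in place of 45, 29, 42, 50 and 41 (M1, unstimulated, WT response, response on arrays labelled iNOS-/-, difference in response). Of all probes, the same minimum left 24.9%, 14.2%, 15.1%, 28.7% and 27.9% called in place of 48.5%, 32.1%, 35.1%, 50% and 41.9%. Averaging probes, which gives values per gene and none per probe, called 7, 9 and 5 genes for the last 3 of these comparisons. With the replicate block, 11 member probes were called for the WT response and 9, 9, 15 and 9 otherwise, and 23 pathway genes in place of 29 between the unstimulated groups, and the WT calls of *Fas* ILMN_2479290 (0.50) and *Tnfrsf1a* ILMN_2469329 (0.68) were lost. Over all probes, the block took the share called from 35.1% to 30.9% for the WT response and from 32.1% to 28% between the unstimulated groups. The replicate numbers share no stated source, and same-numbered arrays deviated together with correlations of -0.04 to 0.02 over 13868 probes. A scaling intercept moved the median of all probes from 0 to 0.20 between the M1 groups and from 0.01 to 0.29 for the difference in response, and quantile normalization from 0.04 to -0.13 for the response on arrays labelled iNOS-/-.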
